A study of Mus musculus with 69 samples.

Results

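H3K27ac and H3K4me1 were compared in wild-type haematopoietic progenitor cells (HPCs) of the mouse by setting the peak list of each mark against the other. The members were all peaks of those 2 lists, 41314 for H3K27ac and 111140 for H3K4me1, together 152454 of the 1506511 peaks in the 18 lists of the series. No 2 peaks of a list touched, so each peak is called a region here. The H3K27ac list came from 4 libraries of wild-type mice aged 8 to 10 weeks that had received PBS, the vehicle, for 3 days. The H3K4me1 list came from 3 libraries of untreated wild-type mice aged 8 weeks. In both experiments the cells were sorted, fixed and profiled by ChIPmentation, in which antibody-bound chromatin is tagged by the Tn5 transposase while still on the beads. The labels name the cells only as HPCs and give neither their surface markers nor the sex of the mice. The series was built on a conditional Kmt2c allele, and the libraries of this comparison were labelled wild type. The mark cannot be told apart from the antibody, the age, the treatment and the number of libraries, all of which differed with it. Each mark had 1 list for all of its libraries, so there was no replicate error and no test. The depth of the libraries is unknown, and the 95% Wilson intervals given after a share cover counting error only.

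H3K4me1 is the monomethylated form of lysine 4 of histone H3. It is laid down at enhancers mainly by the Kmt2c and Kmt2d enzymes and can be present before an enhancer is active. H3K27ac is placed by the acetyltransferases Ep300 and Crebbp and marks enhancers and promoters that are active. At active promoters the nucleosomes next to the start carry trimethylated rather than monomethylated lysine 4, and H3K4me1 lies on the shoulders. Developmental genes that are held silent by Polycomb proteins can carry H3K4 methylation with no H3K27 acetylation.

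Promoters with H3K27ac only, H3K4me1 only and both marks are shown first, since the classes of genes rest on the marks at these starts. Each runs from 250 bases before to 50 bases after a gene start, 5′ to 3′ on the strand of the gene, in lower case with every CG dinucleotide in capitals. They come from RefSeq on GRCm38.p6 and were chosen after the values had been seen. The first pair had H3K27ac and no H3K4me1 within 1 kb of the start. They belong to Tardbp, an RNA-binding protein gene (chr4:148626947-148627246, minus strand), and Sfpq, a splicing factor gene (chr4:127021051-127021350, plus strand).
Tardbp: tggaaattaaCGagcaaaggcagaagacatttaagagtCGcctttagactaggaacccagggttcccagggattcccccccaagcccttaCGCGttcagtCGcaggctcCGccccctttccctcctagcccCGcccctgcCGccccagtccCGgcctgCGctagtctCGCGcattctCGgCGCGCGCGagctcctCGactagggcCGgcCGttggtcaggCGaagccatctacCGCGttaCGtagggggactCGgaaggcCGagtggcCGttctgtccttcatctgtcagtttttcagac
Sfpq: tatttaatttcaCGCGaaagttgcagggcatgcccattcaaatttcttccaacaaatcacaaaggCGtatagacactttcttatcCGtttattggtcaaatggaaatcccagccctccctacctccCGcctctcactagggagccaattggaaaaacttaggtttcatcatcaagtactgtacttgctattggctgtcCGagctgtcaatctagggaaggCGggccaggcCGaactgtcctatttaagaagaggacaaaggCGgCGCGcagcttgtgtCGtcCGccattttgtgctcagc
The next pair had H3K4me1 and no H3K27ac there. They belong to Olig2, a transcription factor gene of the nervous system (chr16:91225300-91225599, plus strand), and Rag1, which encodes part of the lymphocyte recombinase (chr2:101649483-101649782, minus strand).
Olig2: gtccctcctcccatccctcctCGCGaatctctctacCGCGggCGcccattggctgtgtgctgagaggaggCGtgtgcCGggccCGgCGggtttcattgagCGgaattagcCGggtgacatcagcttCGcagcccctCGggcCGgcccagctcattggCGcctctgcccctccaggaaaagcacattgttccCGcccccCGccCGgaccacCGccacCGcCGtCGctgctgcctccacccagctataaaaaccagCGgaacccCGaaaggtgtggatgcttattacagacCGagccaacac
Rag1: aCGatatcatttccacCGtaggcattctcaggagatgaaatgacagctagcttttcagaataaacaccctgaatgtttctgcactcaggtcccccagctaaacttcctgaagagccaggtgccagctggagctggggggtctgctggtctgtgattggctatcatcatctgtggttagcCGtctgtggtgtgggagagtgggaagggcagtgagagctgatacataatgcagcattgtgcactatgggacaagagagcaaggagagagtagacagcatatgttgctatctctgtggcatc
The last pair had both marks. They belong to Cd34, a surface protein of blood progenitors (chr1:194938571-194938870, plus strand), and Mpo, the myeloperoxidase gene of granulocyte precursors (chr11:87793534-87793833, plus strand).
Cd34: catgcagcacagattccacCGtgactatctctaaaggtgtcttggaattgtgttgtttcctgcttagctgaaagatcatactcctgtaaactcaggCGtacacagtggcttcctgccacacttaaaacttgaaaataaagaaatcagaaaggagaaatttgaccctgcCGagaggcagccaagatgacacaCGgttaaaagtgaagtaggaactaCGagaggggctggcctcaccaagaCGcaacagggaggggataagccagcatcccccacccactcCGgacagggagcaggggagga
Mpo: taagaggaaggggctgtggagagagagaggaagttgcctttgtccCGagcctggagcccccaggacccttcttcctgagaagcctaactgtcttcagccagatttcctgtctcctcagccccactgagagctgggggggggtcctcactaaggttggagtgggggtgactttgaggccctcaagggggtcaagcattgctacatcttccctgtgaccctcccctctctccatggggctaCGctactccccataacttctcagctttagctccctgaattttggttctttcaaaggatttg
The 300 bases held 27 CG dinucleotides for Tardbp, 13 for Sfpq, 25 for Olig2, 3 for Rag1, 7 for Cd34 and 2 for Mpo. Within 1 kb on either side of the start, H3K27ac covered 1807 bases at Tardbp and 1710 at Sfpq and H3K4me1 covered 0 at both. H3K4me1 covered 1914 bases at Olig2 and 946 at Rag1, where H3K27ac covered 0. Cd34 had 1899 bases of H3K27ac and 692 of H3K4me1, and Mpo had 1909 and 1266. CG-rich and CG-poor starts thus stood side by side within the class with H3K4me1 only. Cd34 and Mpo, chosen as progenitor genes, are poor in CG for their class, since the median was 22.0 CG dinucleotides at starts with both marks and at starts with H3K27ac only, and 16.0 with H3K4me1 only.

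Marker genes were looked up first. All 8 progenitor markers, Kit, Cd34, Cd48, Mpo, Cebpa, Flt3, Myb and Gata2, had H3K27ac within 1 kb of the start, as did 47.8% of all protein-coding genes, with 93610 bases in total over the genes and 10 kb on each side. Of the 6 markers of mature lymphocytes, 1 had H3K27ac at the start and 5 had no H3K27ac base in the gene and 10 kb on each side (Cd3e, Cd8a, Ms4a1, Ncr1 and Gzmb), with 1069 bases in total. Of the 6 markers of stroma and endothelium, 2 had H3K27ac at the start, Pecam1 and Emcn, and 3 had none in the gene and 10 kb on each side (Col1a1, Pdgfra and Lepr), with 22343 bases in total. Of the 6 HSC markers, 4 had H3K27ac at the start, and Slamf1 and Tek had none in the gene and 10 kb on each side, with 50267 bases in total. H3K4me1 separated the marker lists less. Its bases over the same spans came to 134204 for progenitor, 116810 for HSC, 44401 for stroma and endothelium and 9057 for mature lymphocyte markers, and all 6 stroma and endothelium markers carried some. The part of other cell types in the sort was not tested. Both lists had few regions on chromosome X, 556 (1.35%) for H3K27ac and 749 (0.674%) for H3K4me1, and chromosome Y had 4 and 0.

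H3K27ac lay largely within H3K4me1, while most H3K4me1 had no H3K27ac. Of the H3K27ac regions, 86.2% (35593 of 41314, interval 85.8 to 86.5) overlapped an H3K4me1 region by at least 1 bp. Of the H3K4me1 regions, 31.9% (35403 of 111140, interval 31.6 to 32.1) overlapped an H3K27ac region. H3K27ac covered 45.9 Mb and H3K4me1 103 Mb, and 30.1 Mb carried both. That was 65.5% of the H3K27ac bases, 29.4% of the H3K4me1 bases and 25.4% of the bases with either mark. The order of the shares turned with equal covered bases and held with equal numbers of regions. With the strongest H3K4me1 regions taken up to the bases covered by H3K27ac, 50.8% of H3K27ac regions and 66.7% of H3K4me1 regions overlapped. With equal numbers of regions the shares were 66.0% and 54.7%.

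Regions with both marks were wider and stronger than regions with 1 mark. The median width was 708 bp over all H3K27ac regions and 624 bp over all H3K4me1 regions. H3K27ac regions that overlapped H3K4me1 had a median width of 768 bp (quartiles 385 and 1634), and those without it had 453 bp (279 and 882). H3K4me1 regions with H3K27ac had a median width of 1095 bp (622 and 1899), and those without it had 510 bp (332 and 818). The median −log10 p was 6.31 and 4.84 for H3K27ac regions with and without H3K4me1, and 15.1 and 9.10 for H3K4me1 regions with and without H3K27ac. A wider region has more bases in which to meet the other list, and the part of this in the differences was not tested. At the wide end, all but 4 of 523 H3K27ac regions of at least 5000 bp overlapped H3K4me1 (99.2%), with a median of 91.3% of their bases in it. Of the 856 H3K4me1 regions of that width, 97.1% overlapped H3K27ac, with a median of 71.2% of their bases in it.

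**Figure D1:**
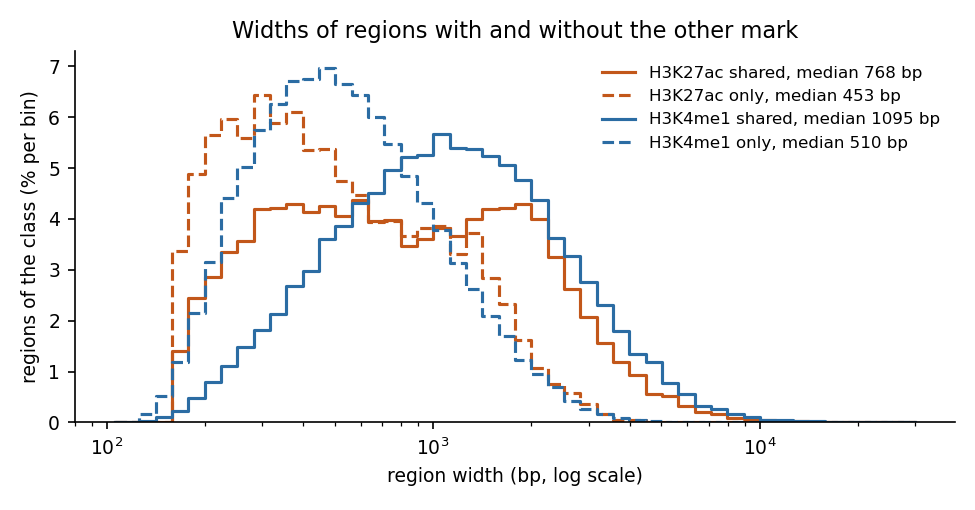
Distribution of region width in wild-type HPCs. The x axis is width in bp on a log scale and the y axis the percentage of a class per bin. Solid lines are regions that overlap the other mark and dashed lines regions that do not, orange for H3K27ac and blue for H3K4me1. The shared H3K4me1 regions lie farthest to the right, with a median of 1095 bp.

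Among the 5 widest regions of each mark, all carried the other mark. The widest H3K27ac region, 24838 bp at chr17:83970636-83995473, lay between genes 121655 bp from Haao, an enzyme gene, and H3K4me1 covered 23483 of its bases. The second, 17935 bp, lay 54126 bp from Zfp36l2, which encodes an RNA-binding protein that destabilises messenger RNAs, and the third, 16883 bp, lay in Ptpre, a phosphatase gene. The fourth, 15417 bp at chr11:19007157-19022573, spanned the start of Meis1, a transcription factor gene of stem and progenitor cells. In that region H3K4me1 covered 3429 bases, the smallest part among the 5 widest. The widest H3K4me1 region, 16989 bp at chr14:25467399-25484387, lay in Zmiz1, a transcriptional co-regulator gene, and 16514 of its bases carried H3K27ac. A region of 15651 bp at Egfl7, an endothelial and blood progenitor gene, was the fourth widest and the second strongest H3K4me1 region, with H3K27ac on 15587 bases.

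Over all regions, overlap was more frequent among stronger ones, and the spread from weak to strong was wider for H3K4me1. Strength here is the −log10 p that the authors' peak caller gave each peak, used only to rank peaks within 1 list. Each list was divided into 4 equal classes of strength. From the weakest to the strongest class, the share of H3K27ac regions that overlapped H3K4me1 went from 81.8% to 89.1%. For H3K4me1 regions the share with H3K27ac went from 12.5% to 63.2%. When the list was divided into 10 equal classes, 77.9% of the strongest class of H3K4me1 regions had H3K27ac, against 10.6% of the weakest. Away from gene starts the share was 7.45% in the weakest and 76.9% in the strongest of the 10 classes. H3K27ac regions near starts differed, since their share lay between 58.7% and 65.5% in the 7 weaker classes, with no order, and was 90.7% in the strongest.

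**Figure D2:**
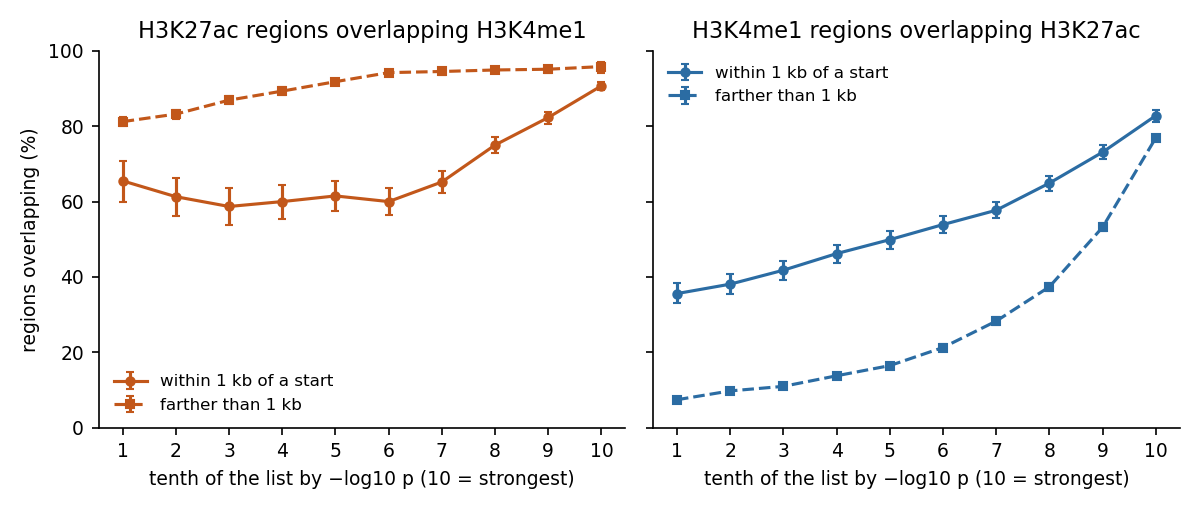
Share of regions that overlap the other mark in 10 equal classes of its list, ranked by −log10 p from weakest (1) to strongest (10). Circles with solid lines are regions within 1 kb of a gene start and squares with dashed lines regions farther away, and bars are 95% Wilson intervals. The H3K4me1 shares run from 7.45% to 76.9% away from starts, while the lowest H3K27ac share away from starts is 81.2%.

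Regions with H3K27ac only lay near gene starts more often than regions with H3K4me1 only. Within 1 kb of a start lay 44.9% of the H3K27ac-only regions (2568 of 5721, interval 43.6 to 46.2) and 10.3% of the H3K4me1-only regions (7823 of 75737, interval 10.1 to 10.5). The shared regions lay between, with 23.8% for H3K27ac and 28.7% for H3K4me1. This order of the H3K27ac-only and H3K4me1-only shares held in 12 of 12 settings. Of the H3K4me1-only regions, 55.4% lay in genes away from a start and 34.3% between genes. Their median distance to a start was 16680 bp, against 3394 bp for H3K27ac-only regions.

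**Figure D3:**
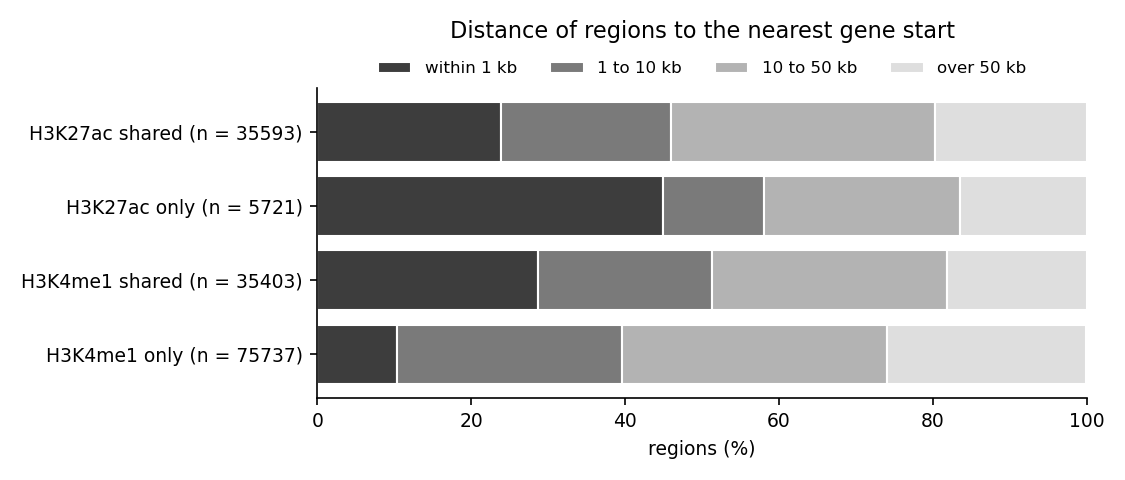
Distance from regions to the nearest gene start, as the percentage of each class within 1 kb, at 1 to 10 kb, at 10 to 50 kb and beyond 50 kb. The darkest segment, within 1 kb, is longest for H3K27ac-only regions (44.9%) and shortest for H3K4me1-only regions (10.3%).

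At gene starts the marks lay side by side, and away from starts on top of each other. At starts, 76.7% of H3K27ac regions overlapped H3K4me1, against 89.6% of those farther than 1 kb. For H3K4me1 the order was the opposite, with 56.5% at starts and 27.1% away from them. The summit of a shared H3K27ac region, its highest point, lay in H3K4me1 in 23.2% of 8475 regions at starts and in 91.3% of 27118 regions away from them. Shared H3K27ac regions had a median of 35.2% of their bases in H3K4me1 at starts and of 100% away from them. Where an H3K27ac region at a start had no H3K4me1, an H3K4me1 region lay within 1 kb of it in 70.8% of cases, at a median gap of 346 bp over all such regions. For an H3K4me1-only region at a start the median gap to H3K27ac was 9055 bp.

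Around the most upstream start of 17491 genes, H3K27ac covered 42.0% of positions at the start itself and reached 44.4% at 200 bp downstream. H3K4me1 covered 7.40% at the start, 22.6% at 800 bp upstream and 33.5% at 1100 bp downstream. The downstream shoulder of H3K4me1 was thus the higher one. With the most upstream start taken, any further start of the same gene lay downstream, and its part in this was not tested. At the 7070 starts with both marks, H3K4me1 covered 8.18% at the start, between 46.1% upstream and 68.3% downstream, while H3K27ac reached 92.7%. At the 2234 starts with H3K4me1 only, the dip was shallower, with 32.1% at the start, 44.8% at 400 bp upstream and 48.9% at 600 bp downstream. At the 1322 starts with H3K27ac only, H3K4me1 is absent within 1 kb by definition, and it covered 39.6% of positions 1700 bp downstream.

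**Figure D4:**
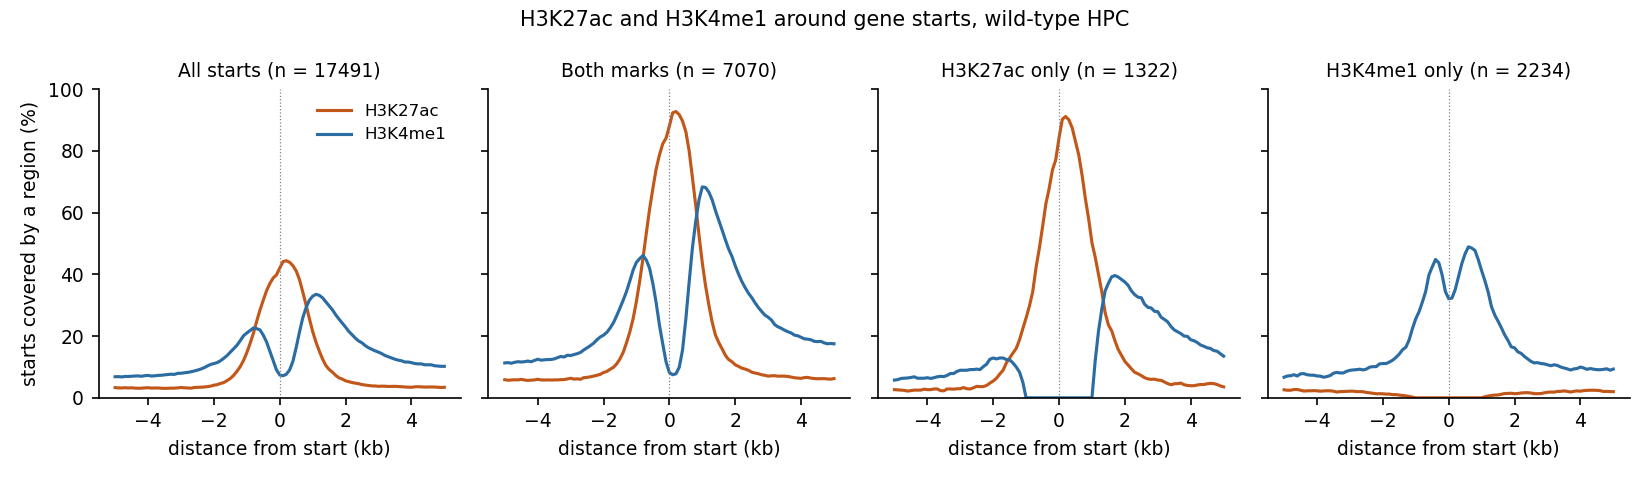
Percentage of gene starts at which a position is covered by an H3K27ac (orange) or H3K4me1 (blue) region, by distance from the start in kb, negative values being upstream. The panels are all 17491 starts and those with both marks, H3K27ac only or H3K4me1 only within 1 kb, and the absent mark is at 0 there by definition. H3K4me1 dips at the start where both marks are present, to 8.18%, and less where it is alone, to 32.1%.

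Each protein-coding gene was placed in 1 of 4 classes by the marks within 1 kb of its start. Of 21883 genes, 8993 had both marks (41.1%), 1469 had H3K27ac only (6.71%), 3101 had H3K4me1 only (14.2%) and 8320 had neither (38.0%). For 4392 genes without a start with strand, either gene end counted. These shares over all genes are the background for the counts in gene lists. H3K27ac-only genes were close to H3K4me1, with a median distance of 1572 bp from the start, and 62.6% had H3K4me1 within 2500 bp. H3K4me1-only genes were far from H3K27ac, with a median distance of 24054 bp, and 6.55% had H3K27ac within 2500 bp. With a window of 2500 bp, 582 genes had H3K27ac only and 3355 had H3K4me1 only. The order of these counts turned with the stronger 50% of each list (3129 with H3K27ac only and 2313 with H3K4me1 only). It also turned with equal numbers of regions (4806 and 1243) and with equal covered bases (6954 and 597). It held in the other settings, among them −log10 q of at least 2 (1451 and 3257).

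**Figure D5:**
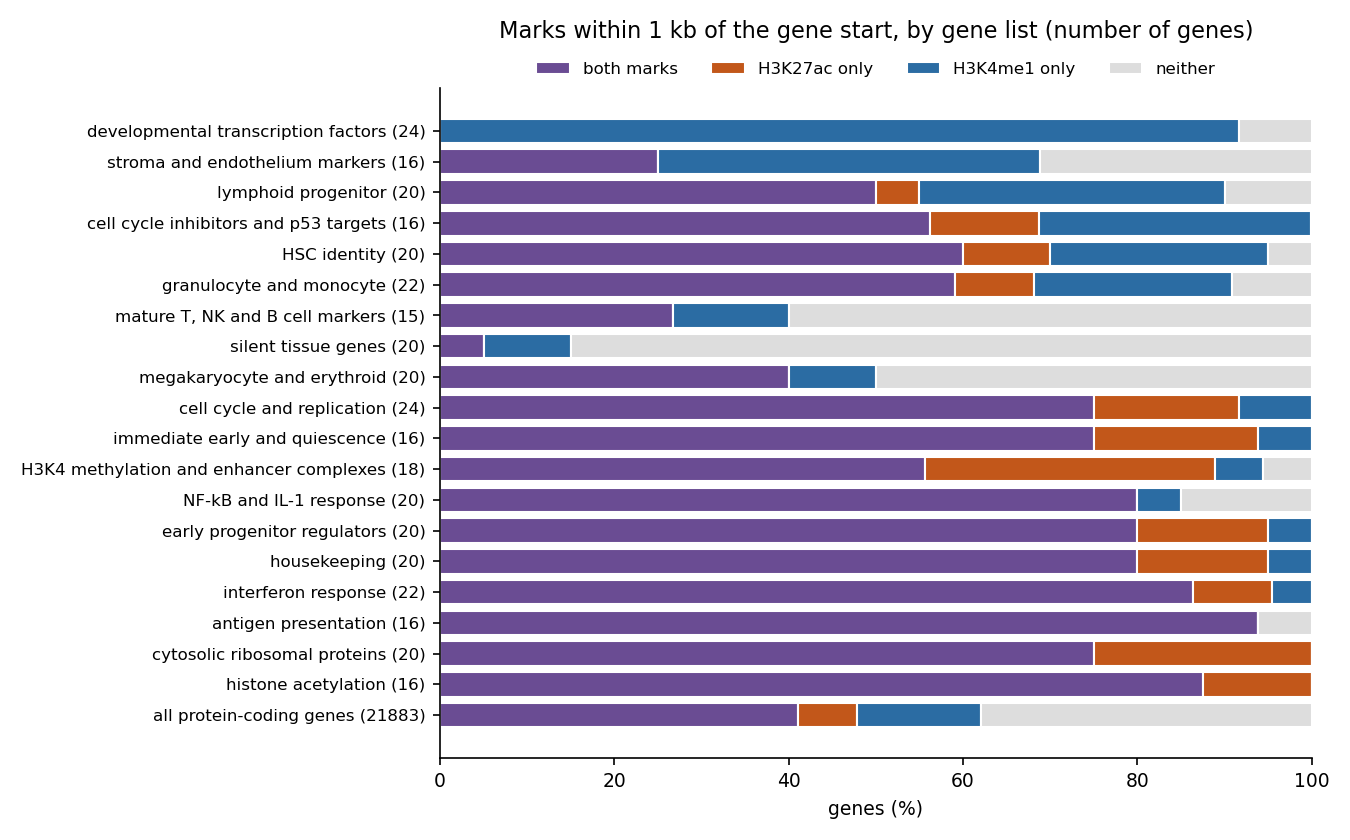
Genes of 19 lists by the marks within 1 kb of their start, as percentages of the list, with all protein-coding genes in the bottom bar. Developmental transcription factors are almost all in the class with H3K4me1 only (22 of 24), silent tissue genes mostly have neither mark (17 of 20), and cytosolic ribosomal protein genes all have H3K27ac (20 of 20).

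Developmental transcription factors carried H3K4me1 and no H3K27ac. Of 24 listed genes, 22 had H3K4me1 only at the start, against 14.2% of all genes, and 2 had neither, Dlx5 and Tbx5. None had H3K27ac there, and none had it in any of the 8 settings and pairs of lists counted, although the number with H3K4me1 was 9 with equal numbers of regions, where 5.68% of all genes had H3K4me1 only. Lhx2, a factor of forebrain and limb development, had 11334 bases of H3K4me1 and 0 of H3K27ac in the gene and 10 kb on each side. Pax6, the eye and forebrain factor, had 10664 and 0, and Olig2 had 7361 and 0. Nkx2-5, the heart factor, had 5825 and 0, and Sox17, an endoderm and endothelial factor, had 6439 and 0. In the wild-type HSC pair all 24 had H3K4me1 only, against 12.0% of all genes. With the H3K4me1 list of HSCs at 16 weeks, 15 had H3K4me1 only and 9 had neither, against 6.74% of all genes with H3K4me1 only.

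Families were also formed from gene symbols, after these values had been seen. Of 19 Wnt genes, 17 had H3K4me1 only and 2 had neither, against 14.2% and 38.0% of all genes. Of 22 Fgf genes, 13 had H3K4me1 only and 9 had neither. Of 19 Sox genes, 11 had H3K4me1 only, 2 had both marks, 1 had H3K27ac only and 5 had neither. The Hox clusters differed among themselves. Both marks were present at 5 of 11 Hoxa genes and 2 of 10 Hoxb genes, and at 0 of 9 Hoxc and 0 of 9 Hoxd genes, where 6 and 4 had H3K4me1 only. Hoxa9, a factor of stem and progenitor cells, had 21331 bases of H3K27ac and 5681 of H3K4me1 in the gene and 10 kb on each side. Hoxd13, the limb and digit factor, had 0 and 2789.

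Silent genes of differentiated tissues mostly had neither mark. Of 20 listed genes, 17 had neither, against 38.0% of all genes, 2 had H3K4me1 only (Cdx2 and Pou4f3), and Mbp had both. Alb, Ins2 and Krt14, which encode serum albumin, insulin and a skin keratin, were among the 17. Cdx2, an intestinal transcription factor, had 6089 bases of H3K4me1 and 0 of H3K27ac in the gene and 10 kb on each side. Of 1110 olfactory receptor genes, 1090 had neither mark, and so had 352 of 353 vomeronasal receptor genes.

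Genes of basic cell function carried H3K27ac, and some had no H3K4me1 within 1 kb. All 20 listed cytosolic ribosomal protein genes had H3K27ac, against 47.8% of all genes. Of them, 15 had H3K4me1 too and 5 did not (Rpl3, Rpl5, Rpl10a, Rpl13 and Rpl23). Over all 77 genes named Rpl or Rps, 20 had H3K27ac only, or 26.0%, against 6.71% of all genes. Rpl13 had 1813 bases of H3K27ac within 1 kb of its start, and the nearest H3K4me1 began 1387 bp away. Of the 20 housekeeping genes, 16 had both marks, against 41.1% of all genes. Ywhaz had H3K4me1 only, with 181 bases within 1 kb of a gene end, since its strand was not given. Gapdh, Hprt and Pgk1 had H3K27ac only. All 5 ribosomal genes and these 3 had both marks with the window of 2500 bp, as did 46.7% of all genes. Gapdh, a glycolytic enzyme gene, had 2001 of 2001 bases covered by H3K27ac, and its nearest H3K4me1 was 1212 bp away. Of 397 zinc finger genes named Zfp, 234 had both marks and 53 had H3K27ac only (13.4%). H3K27ac only was found at 6.41% of 78 mitochondrial ribosomal protein genes and 8.16% of 49 NADH dehydrogenase genes. It was found at 8.33% of 36 genes of Sm, Lsm and Srsf splicing proteins and 12.5% of 40 proteasome genes. The 6.71% of all genes counts genes without H3K27ac too. Of the 10462 genes with H3K27ac at the start, 1469 had no H3K4me1 there.

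With the window of 1 kb, genes of the H3K4 methylation machinery were in the H3K27ac-only class more often than all genes. Of 18 genes, 10 had both marks and 6 had H3K27ac only, against 41.1% and 6.71% of all genes. The 6 were the methyltransferase genes Kmt2a, Kmt2c and Kmt2d and the demethylase genes Kdm1a, Kdm5b and Kdm6a. Kdm6a lies on chromosome X, where 84.6% of genes with H3K27ac at the start had no H3K4me1 there. Ash2l, a core subunit gene without a given strand, had H3K4me1 only, with 120 bases within 1 kb of a gene end. Ncoa6, a subunit of the Kmt2c and Kmt2d complexes, had neither. Kmt2c had 1923 bases of H3K27ac within 1 kb of its start, and H3K4me1 lay 1256 bp away. Kmt2d had 1674 bases and Kmt2a 1884. With the window of 2500 bp, 1 of the 18 genes had H3K27ac only, against 2.66% of all genes. Of 16 genes of histone acetylation, 14 had both marks, and Ep300 and Sirt1 had H3K27ac only.

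Regulators of early progenitors had H3K27ac at 19 of 20 starts, against 47.8% of all genes. The marks met at 16 of them, against 41.1% of all genes. Cd34, Flt3, Runx1, Myb, Myc and Tal1 were among the 16. Kit, the stem cell factor receptor, Cdk6, a cell cycle kinase, and Etv6, a repressor needed for blood stem cells, had H3K27ac only. Kit had 1164 bases of H3K27ac within 1 kb of its start and H3K4me1 1916 bp away, and over the gene and 10 kb on each side it had 16904 and 28288 bases. Etv6 had 124383 bases of H3K27ac and 160829 of H3K4me1 over the same span. At Flt3, a cytokine receptor gene of multipotent progenitors, H3K27ac exceeded H3K4me1, with 39333 and 28632 bases. Gfi1b, a factor of megakaryocyte and red cell lineages, had H3K4me1 only, with 1777 bases within 1 kb of its start and H3K27ac 18506 bp away. Over all 14768 genes with at least 1000 bases of either mark in the gene and 10 kb on each side, the median log2 of H3K27ac over H3K4me1 bases, after 1000 were added to each, was −0.68.

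Genes of other blood lineages were split among the classes. The shares of all genes to set beside these counts were 41.1% with both marks, 6.71% with H3K27ac only, 14.2% with H3K4me1 only and 38.0% with neither. Of 22 granulocyte and monocyte genes, 13 had both marks, among them Mpo, Elane, Csf1r and Spi1. Cebpa and Gfi1, transcription factors of granulocyte development, had H3K27ac only, and Cd14, Clec7a, Fcgr3, Irf8 and Ly6c2 had H3K4me1 only. Irf8, a factor of monocyte and dendritic cell fate, had 1589 bases of H3K4me1 within 1 kb of its start and 0 of H3K27ac, although 8800 bases of H3K27ac lay in the gene and 10 kb on each side. Of 20 lymphoid progenitor genes, 10 had both marks, Bcl11a had H3K27ac only, and 7 had H3K4me1 only. Those 7 were Bcl11b, Blnk, Ebf1, Il7r, Pax5, Rag1 and Tcf7, most of them factors or receptors of B and T cell fate. Ebf1 had 14294 bases of H3K4me1 and 842 of H3K27ac in the gene and 10 kb on each side, and Pax5 had 6100 and 0. Of 20 megakaryocyte and erythroid genes, 10 had neither mark, among them Gata1, Epor and Alas2, and 8 had both, among them Klf1, Itga2b and Pf4. All 15 antigen presentation genes with a mark at the start had both, and Ciita, the activator of class II genes, had neither within 1 kb. Of 20 genes of the NF-kB and IL-1 response, 16 had both marks, Cxcl2 had H3K4me1 only and 3 had neither.

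Of the 20 genes of HSC identity, 12 had both marks in HPCs, Fgd5 and Meis1 had H3K27ac only, Ndn had neither, and 5 had H3K4me1 only, against 14.2% of all genes. Those 5 were Slamf1, Tek, Esam, Hoxb5 and Vwf. For Esam, Hoxb5 and Vwf the strand was not given and either gene end counted, and at Vwf H3K4me1 covered 202 bases there. The count with H3K4me1 only was 1 with equal numbers of regions, 3 with the window of 2500 bp and 2 in the knockout HPC pair. In the wild-type HSC pair, all 5 had H3K27ac at the start, as did 49.8% of all genes, and no gene of the list had H3K4me1 only. That pair held an H3K27ac list of 3 libraries from mice aged 16 weeks that received PBS and an H3K4me1 list of 3 libraries from untreated mice aged 8 weeks. Slamf1, a surface receptor gene used to sort HSCs, had 0 bases of H3K27ac in the gene and 10 kb on each side in HPCs and 6957 in HSCs, with 6093 and 16346 of H3K4me1. Tek, the angiopoietin receptor gene, had 0 and 907 bases of H3K27ac, and Vwf, the von Willebrand factor gene, had 6551 and 15768. Of the 8 progenitor markers, all but Gata2 (7682 bases in HPCs and 10832 in HSCs) had more H3K27ac bases in HPCs, with 5554 and 361 for Mpo and 7663 and 349 for Cd48. Of the 6 HSC markers, all but Hlf (22908 in HPCs and 8175 in HSCs) had more in HSCs. Cell type cannot be told apart here from the age and the treatment of the mice, and each value comes from 1 list per group.

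More than 50% of the genes of each class in the wild-type HPC pair were in the same class in the wild-type HSC pair. Over all genes, the HSC pair had both marks at 38.4%, H3K27ac only at 11.3%, H3K4me1 only at 12.0% and neither at 38.2%. Of the 8993 genes with both marks in HPCs, 81.7% had both in HSCs, and of the 1469 with H3K27ac only, 66.2% had H3K27ac only. Of the 8320 with neither, 91.0% had neither. Of the 3101 with H3K4me1 only, 56.7% were in the same class in HSCs, 21.8% had neither and 17.2% had both. The HSC pair had 2482 genes with H3K27ac only and 2626 with H3K4me1 only. When the same H3K27ac list was set against the H3K4me1 list of HSCs from mice aged 16 weeks after PBS (4 libraries, 87410 regions), the order turned, with 4649 and 1476 genes. In HSCs 69.2% of the 59263 H3K27ac regions overlapped the H3K4me1 list at 8 weeks, which covered 86.1 Mb. The H3K4me1 list at 16 weeks covered 54.0 Mb, and 55.3% overlapped it. In the wild-type HPC pair H3K4me1 covered 103 Mb. The part of covered bases in the differences between HPCs and HSCs was not tested. In the knockout HPC pair 85.5% of H3K27ac regions overlapped H3K4me1, which covered 103 Mb. The 4 H3K27ac and 3 H3K4me1 libraries of that knockout pair came from mice with both Kmt2c alleles conditional and the Vav-Cre transgene, at the ages and treatments of the wild-type pair.

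Regions with 1 mark in the wild-type HPC pair were also looked up in the other lists of the missing mark. For both marks these included knockout HPCs and wild-type and knockout HSCs of mice aged 16 weeks after PBS or 5FU (5-fluorouracil). HPCs after IL-1 (0.5 ug per day for 3 days) had H3K27ac lists only. Cells heterozygous for Kmt2c, from mice aged 8 weeks, had H3K4me1 lists only. Of the 5721 H3K27ac-only regions, 58.2% were covered by at least 1 of the 9 other H3K4me1 lists, against 99.1% of the shared regions. The heterozygous HPC list alone covered 27.1% of them and the wild-type HSC list at 8 weeks 20.6%. The highest share for 1 list was 34.2%, for wild-type HSCs after 5FU, whose list covered 116 Mb, the most of the H3K4me1 lists. Knockout HSCs at 8 weeks, with 113 Mb, came next with 31.2%. The list of knockout HSCs after 5FU, with 44.2 Mb, covered 9.05% of the regions. The part of covered bases in these shares was not tested. Of the 75737 H3K4me1-only regions, 28.9% were covered by at least 1 of the 7 other H3K27ac lists, against 97.1% of the shared regions. The wild-type HPC list after IL-1 covered 6.61% of them, and the wild-type HSC list after PBS 13.1%. Of the same regions, 71.3% lay in the H3K4me1 list of heterozygous HPCs.

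The 3 strongest H3K27ac regions without H3K4me1 lay on chromosome X and were also the 3 strongest of the whole H3K27ac list. They lay between genes at 5974 to 18308 bp from Mid1, a gene at the boundary of the mouse pseudoautosomal region. Their fold enrichment was 12.5, 26.3 and 15.2, against 38.4 and 44.0 for the next 2 regions of the class, on other chromosomes. The strongest was chrX:169996772-169998354, with a −log10 p of 424, and the nearest H3K4me1 was 4984 bp away. It lay in 7 of the 8 H3K27ac lists and 4 of the 10 H3K4me1 lists. The next H3K27ac-only regions lay at the start of Clk1, a kinase gene of splicing control (chr1:58422482-58424415, H3K4me1 at 359 bp), and 3137 bp from Anp32e, a histone chaperone gene. Among H3K4me1-only regions, the strongest lay in Chst11, a sulfotransferase gene, with the nearest H3K27ac 55704 bp away. The second, chr7:35150178-35152800, lay 28250 bp from Cebpa, and 5 of the 8 H3K27ac lists covered it although that of wild-type HPCs after PBS did not.

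On chromosome X, H3K27ac regions overlapped H3K4me1 far less often than on the autosomes. Of 556 H3K27ac regions on X, 25.5% (interval 22.1 to 29.3) overlapped H3K4me1, and on the autosomes the lowest share was 85.3% and the highest 88.8%. The gap was smaller for H3K4me1 regions, of which 21.0% overlapped H3K27ac on X and 31.9% on the autosomes, where the lowest share was 28.7%. Among H3K27ac regions within 1 kb of starts the share was 11.3% on X (34 of 302) and 78.6% on the autosomes, and farther away 42.5% and 90.0%. H3K27ac covered 1.46 times as many bases as H3K4me1 on X, and on no autosome more than 0.502 times as many. Of 279 genes on X with H3K27ac at the start, 236 had no H3K4me1 there (84.6%, interval 79.9 to 88.4), against 12.1% of such genes on the autosomes. Hprt and Pgk1, the housekeeping genes of X, were among them, and so was Kdm6a with 2001 bases of H3K27ac within 1 kb of its start. Kdm5c, a demethylase gene on X, had both marks, with 1225 bases of H3K27ac and 101 of H3K4me1. The difference was present in the other pairs, with 19.1% of X regions overlapping in knockout HPCs against 86.6% on the autosomes, 13.0% against 69.9% in HSCs, and 2.46% against 55.9% in HSCs with the H3K4me1 list at 16 weeks. X regions of H3K27ac had a higher median −log10 p than those of the autosomes (8.72 and 6.17), and X regions of H3K4me1 a lower one (8.21 and 10.4). More X regions of H3K27ac lay within 1 kb of a start, 54.3% against 26.3% on the autosomes. Regions that near to starts made up 63.4% of the strongest of 4 classes of H3K27ac and 7.83% of the weakest. The part of this in the higher −log10 p was not tested. The part of sex, depth or the authors' filter in the difference of X was not tested. Without the sex chromosomes, 87.0% of H3K27ac regions overlapped and 1230 genes had H3K27ac only.

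Promoter sequence went with the classes. Among the 17491 starts with a RefSeq promoter sequence, an observed over expected CG ratio of at least 0.6 was found in 77.9% of starts with both marks, 77.5% with H3K27ac only, 53.2% with H3K4me1 only and 10.8% with neither, and in 48.4% of all. Tardbp, at 0.952, and Olig2, at 0.815, lie above that value, and Rag1, at 0.165, Cd34, at 0.374, and Mpo, at 0.0871, below it. Looked at from the sequence, 65.1% of starts at or above 0.6 had both marks and 8.79% neither, against 17.3% and 67.8% below it. The letters CCGGAAG, an ETS factor site, were searched on both strands and found in 22.1% of promoters with both marks, 15.9% with H3K27ac only, 5.06% with H3K4me1 only and 2.90% with neither, against 11.9% of all 17491. This motif holds a CG, and the part of CG content in its share was not tested. The letters TATAAA, the TATA box, were found in 6.38%, 5.67%, 9.94% and 23.1%, in the same order, against 13.3% of all. An ETS site of the PU.1 type was found in 3.55%, 2.34%, 1.97% and 3.26%, in the same order, against 3.14% of all. The share of this ETS site was thus lowest with H3K4me1 only. An NRF1 site was found in 2.43%, 2.04%, 0.537% and 0.320%, against 1.33% of all. A RUNX site was found in 12.6%, 10.7%, 12.8% and 19.3%, against 15.1%. A site of Gata factors was found in 5.74%, 6.28%, 7.12% and 15.9%, against 9.94%. A match describes the letters only.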

How the data were processed

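Peaks came from 1 deposited list per group, so the authors pooled libraries or combined their peaks. Alignment and peak calling relied on Novoalign and MACS2 with the build mm10 (GRCm38), per the submitters' processing notes. For versions, filter and pooling, the sources used here give nothing. For each peak, the authors' deposited columns gave the position, fold enrichment (a linear ratio), −log10 p and −log10 q. The enrichment and the −log10 values were compared within a list only. Overlap of at least 1 bp, widths, distances and covered bases were computed with Python 3.11.15, numpy 2.4.6, pandas 2.3.3 and scipy 1.17.1, and the code was checked on simulated lists with known answers. Starts of 17491 of 21883 protein-coding genes (79.9%) came from a RefSeq promoter table of GRCm38.p6, and for the other 4392 genes both ends of the gene were used, since the gene table has no strand. Gene symbols were matched for 363 of 366 genes in 19 lists, without Trac, Mx1 and Mx2.

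Nothing in the labels says that libraries came from separate animals. No test was possible with 1 list per group. The regions and gene lists were chosen with earlier results of these data known, and the symbol families, motifs and promoters shown after the values here had been seen. Named genes were those nearest to the 5 strongest regions of each class and the 5 widest of each mark, the 2 members of each gene list with most and the 1 with least H3K27ac minus H3K4me1 bases, 16 reference genes, list members with 1 mark where 5 or fewer, and the markers. The H3K4me1 list of HSCs at 16 weeks was used as a further comparison. Other genes named were chosen after their values were seen. Input chromatin was not used here.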

Additional observations from a re-analysis of the deposited data

How the results depend on the processing

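Limits: 1 list per mark, unknown depth and a longer H3K4me1 list. The share near starts was higher for H3K27ac-only than for H3K4me1-only regions in 12 of 12 settings. The share of H3K27ac regions with H3K4me1 exceeded the reverse share in 9 of 10, and more genes had H3K4me1 only than H3K27ac only in 7 of 10. Of 71 alternative values, 53 moved beyond the counting interval (0.5 percentage points for shared bases, 1.5 times for gene counts). Dropping regions from the lists can only lower the number of regions that overlap, but the shares moved in both directions. The cause of these moves was not tested. No paired analysis was possible because the result comes from no test, and libraries could not be left out of a list made from all of them.

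In each of the following, values stand for H3K27ac regions overlapping, H3K4me1 regions overlapping, shared bases of the union, H3K27ac-only and H3K4me1-only regions near a start. With an overlap of 50% of the shorter region they were 75.3%, 25.5%, not run, 55.8% and 14.4%. With −log10 q of at least 2 they were 87.4%, 28.7%, 23.7%, 56.5% and 10.2%, and the median H3K27ac width was 954 bp. With the stronger 50% they were 76.7%, 33.3%, 22.7%, 67.3% and 11.4%, and 3129 genes had H3K27ac only. With equal numbers they were 66.0%, 54.7%, 29.6%, 38.7% and 12.6%, with 4806 genes of H3K27ac only and 1243 of H3K4me1 only. With equal covered bases they were 50.8%, 66.7%, 29.6%, 35.8% and 12.8%, with 6954 and 597 genes. With peaks up to 1 kb apart merged they were 87.3%, 37.5%, not run, 53.3% and 13.3%, and median widths were 1366 and 1157 bp. With autosomes only they were 87.0%, 31.9%, 25.6%, 43.3% and 10.3%. With the IL-1 list for H3K27ac they were 85.4%, 31.5%, 24.4%, 39.2% and 10.3%. With the knockout pair they were 85.5%, 28.2%, 21.3%, 50.3% and 8.04%, and median widths were 784 and 577 bp. With 2500 bp at the start the last pair of shares was 48.8% and 19.4%, and 582 genes had H3K27ac only. With starts given with strand alone, an alternative added after the data were seen, it was 37.0% and 7.63%.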

Other observations

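Further gene groups were counted with the same window of 1 kb. Over all genes, 41.1% had both marks, 6.71% H3K27ac only, 14.2% H3K4me1 only and 38.0% neither. Of 22 interferon response genes, 19 had both marks, Ifit3 and Irgm1 had H3K27ac only and Ifit2 had H3K4me1 only. Of 24 cell cycle and replication genes, 18 had both marks, among them all 6 genes of the MCM helicase (Mcm2 to Mcm7), Ccna2, Ccnb1, Cdk4 and Tyms had H3K27ac only, and Plk1 and Rrm2 had H3K4me1 only. Of 16 cell cycle inhibitors and p53 targets, 5 had H3K4me1 only (Cdkn1c, Cdkn2a, Cdkn2b, Phlda3 and Zmat3), and Trp53 and Ccng1 had H3K27ac only. Cdkn2a, the locus of p16 and p19Arf, had 4051 bases of H3K4me1 and 0 of H3K27ac in the gene and 10 kb on each side. Of 16 immediate early and quiescence genes, 12 had both marks, Foxo3, Jun and Klf6 had H3K27ac only and Atf3 had H3K4me1 only.

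Markers of stroma and endothelium had H3K4me1 only at 7 of 16 starts, both marks at 4 and neither at 5. Over all genes these shares were 14.2%, 41.1% and 38.0%. Pdgfra, a receptor gene of mesenchymal cells, had 8090 bases of H3K4me1 and 0 of H3K27ac in the gene and 10 kb on each side, and Kdr, a receptor gene of endothelium, had 9925 and 1268. Of 15 mature T, NK and B cell markers, 9 had neither mark. Of the 12 genes of the Irf family, 9 had both marks and 3 had H3K4me1 only, and of 17 Klf genes 9 had both, 4 had H3K27ac only and 4 had neither.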
